A study of Mus musculus with 12 samples.

Results

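Expression of 9 imprinted growth regulator genes was examined in primary mouse brain endothelial cells (BECs) that carry or lack the neuropeptide cortistatin. The genes were chosen by symbol as a network of imprinted genes without Igf2, and all 9 are present in both deposited tables, among 29965 genes under NM and 29775 under OGD. They are the maternally expressed H19, Meg3, Cdkn1c and Grb10, and the paternally expressed Plagl1, Peg3, Mest, Dlk1 and Ndn.

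Imprinted genes are transcribed mainly from a single parental allele, which is set by methylation of control regions in the germ line. Many of them lie in clusters, are abundant in embryonic and placental tissue, fall in level after birth and act on cell growth, in part through insulin-like growth factor signalling. Brain endothelium forms the blood-brain barrier, and most of its cells do not divide in the adult. RNA-seq values summed per gene, as here, do not separate the parental alleles.

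BECs came from adult C57BL/6 (C57BL/6J in the study's methods) Cort+/+ mice or Cort-/- mice, which lack the cortistatin gene in all cells, and were enriched in culture with puromycin. Each biological replicate was a pool of cells from 3 mice. The NM groups were kept for 24 h at 21% oxygen with glucose, and the OGD groups for 4 h at 1% oxygen without glucose, followed by 20 h of reoxygenation. The labels give all 4 groups the disease state of a mouse stroke model (MCAO), while the injury described for these cultures was made in vitro. Of 12 samples listed, 10 had a column: 3 Cort+/+ and 2 Cort-/- libraries in each environment. Cort-/- NM replicate 3 and Cort-/- OGD replicate 2 were not analysed here.

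As recovered from the deposited values, the libraries held between 12386048 and 12390428 reads on genes. Totals this close to each other need not be the depth that was sequenced, and read counts given here are the recovered ones. Cort had 2, 1 and 1 reads in the Cort+/+ NM libraries, 0, 0 and 1 in the Cort+/+ OGD libraries and 0 in all 4 Cort-/- libraries, too few for a fold change. A pair of libraries stood apart before any comparison: the 18S ribosomal transcript Rn18s-rs5 took 0.0775% of the reads in Cort+/+ OGD replicate 1 and 0.0951% in Cort-/- OGD replicate 3, against 7.64% to 15.8% in the other 8. Endothelial markers (8 genes, among them Cldn5, Pecam1 and Cdh5) summed to between 949 and 1446 RPKM. Smooth muscle markers (Acta2, Tagln, Cnn1 and Myh11) summed to between 995 and 1777 RPKM, so the endothelial markers were present beside abundant contractile transcripts. Most of this sum was Acta2 and Tagln, while Cnn1 ranged from 6.08 to 16.4 RPKM and Myh11 from 0.506 to 2.11 RPKM. Epithelial markers ranged from 1.43 to 49.6 RPKM, and the astrocyte, neuron, oligodendrocyte, microglial and choroid plexus lists each stayed at or under 1.20 RPKM in every library.

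The start regions of members with a RefSeq entry (GRCm38.p6) are shown for the 3 of the 4 genes with the smallest p-values under NM for which a window was at hand. The windows hold the 250 bases before the start, 5′ to 3′ on the gene's strand. In Peg3 (chr7:6730420-6730669, minus strand) the capitals mark GGGGCCCC, the palindromic core of the motif bound by PLAGL1, itself a member. In Meg3 (chr12:109540746-109540995, plus strand) they mark TATAAA, the TATA box. In Grb10 (chr11:12037421-12037670, minus strand) they mark every CG dinucleotide, the sequence at which imprints are methylated. Methylation was not measured, and the window is not shown to carry the imprint.
Peg3: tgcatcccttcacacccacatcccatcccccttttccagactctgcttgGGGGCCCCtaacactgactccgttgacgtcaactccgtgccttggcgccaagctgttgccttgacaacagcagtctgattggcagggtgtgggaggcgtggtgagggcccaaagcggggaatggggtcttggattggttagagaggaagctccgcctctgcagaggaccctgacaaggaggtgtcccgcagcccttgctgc
Meg3: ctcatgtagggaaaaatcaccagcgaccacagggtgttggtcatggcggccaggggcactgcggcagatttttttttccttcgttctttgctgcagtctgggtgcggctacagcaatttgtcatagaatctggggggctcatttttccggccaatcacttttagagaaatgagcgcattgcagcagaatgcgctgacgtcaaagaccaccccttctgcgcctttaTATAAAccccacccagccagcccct
Grb10: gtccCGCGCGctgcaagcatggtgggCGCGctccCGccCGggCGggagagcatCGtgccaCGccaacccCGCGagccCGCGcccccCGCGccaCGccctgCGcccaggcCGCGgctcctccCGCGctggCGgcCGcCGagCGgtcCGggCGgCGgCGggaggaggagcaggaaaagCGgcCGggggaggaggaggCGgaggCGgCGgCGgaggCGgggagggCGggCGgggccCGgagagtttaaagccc
This window, the first of 2 given for Grb10, holds 40 CG dinucleotides with a GC content of 81.2%. As many are found in 1.31% of 32851 RefSeq windows of the same length, whose median is 6. The other Grb10 window (chr11:12027972-12028221) holds 8, with a GC content of 54%, and 43.0% of windows hold as many. Searched on both strands in 11 windows of 7 members, GGGGCCCC was found only in Peg3, toward the far end of the window, and is present in 0.889% of all windows. TATAAA was found only in the first of the Meg3 windows, 25 bases before the start, and is present in 12.4% of all windows. These matches are letters in a window and do not show binding.

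H19 also contains a microRNA hairpin, which the table lists as a separate gene, Mir675. Its mature products (RefSeq, GRCm38.p6, chromosome 7, minus strand) are given with the seed, bases 2 to 8, in capitals, because reads of H19 fall on this row too; the seeds differ from each other and from those of the Meg3 microRNAs miR-770 and miR-1906.
miR-675-5p: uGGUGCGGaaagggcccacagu
miR-675-3p: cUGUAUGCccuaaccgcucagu
These libraries do not measure mature microRNAs.

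The members spanned a wide range of levels. On the RPKM scale, which is per length, H19 led in the Cort+/+ NM libraries with a mean of 27.8 ± 9.43 RPKM (SD, n = 3), above 94.8% of all genes in that group. Grb10 (25.8 ± 3.87) and Ndn (15.8 ± 2.85) came next, followed by Peg3 (6.88 ± 1.40), Meg3 (6.83 ± 1.88), Mest (4.58 ± 0.520), Plagl1 (3.80 ± 0.337) and Cdkn1c (3.57 ± 1.39). Dlk1 was nearly silent at 0.0819 ± 0.0311 RPKM, from 4 to 8 reads a library. In this group the ranges of Grb10 and Ndn, of Ndn and Peg3, and of Cdkn1c and Dlk1 did not overlap, whereas those of H19 and Grb10 and of every neighbouring pair from Peg3 down to Cdkn1c did. In the Cort-/- NM libraries H19 came after Grb10 and Ndn, though its range overlapped that of Ndn. Under OGD H19 led in both genotypes, apart from Grb10 in Cort+/+ libraries and overlapping it in Cort-/- libraries. In every group Cdkn1c and Dlk1 were the lowest. 

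**Figure D1:**
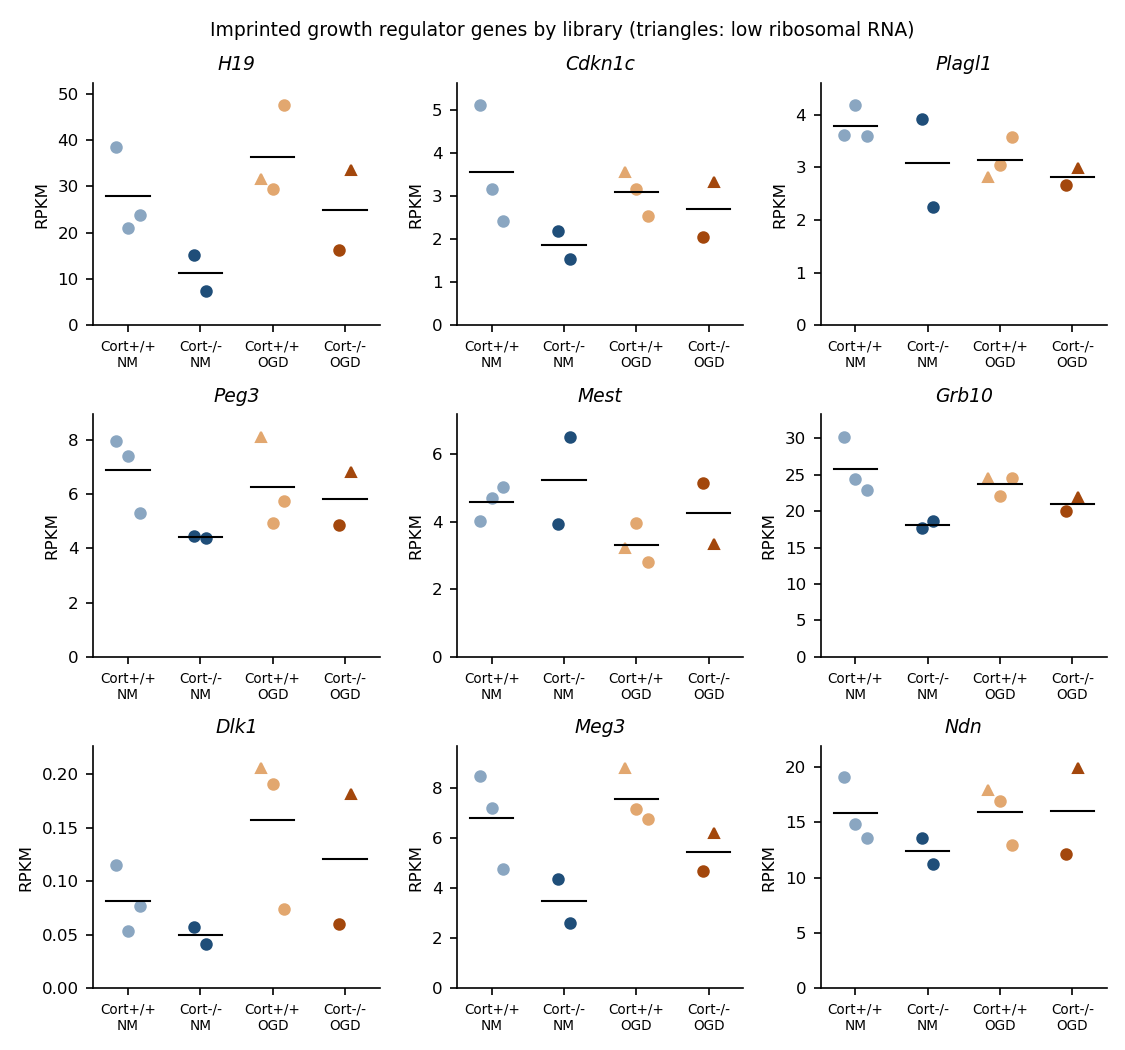
RPKM (vertical axis, from 0) of each of the 9 genes in the 10 libraries, by genotype and environment; points are libraries, triangles the 2 libraries low in ribosomal RNA and lines group means. Under NM both Cort-/- libraries lie below all 3 Cort+/+ libraries for H19, Cdkn1c, Peg3, Grb10, Meg3 and Ndn.

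The first comparison asked whether BECs that lack cortistatin differ from Cort+/+ cells at rest, under NM. For 6 of the 8 members that reached 1 RPKM in at least 2 libraries, both Cort-/- libraries lay below every Cort+/+ library, against 16.5% of the 14220 genes at that level. H19 differed by 2.51-fold, Meg3 by 1.94-fold, Cdkn1c by 1.81-fold and Peg3 by 1.52-fold. No member passed an FDR of at most 0.05 in the limma fit, nor did any gene of the table (0%), while limma-voom on recovered reads called 124 genes and no member. At an unadjusted p under 0.05 there were 4 members, all lower (Grb10, H19, Meg3 and Peg3), against 8.39% of genes in either direction and 4.82% in the lower one. With limma-voom there were 6, with Cdkn1c and Ndn beside these, against 11% of genes. The median log2 fold change of the 9 members was -0.50, beside -0.01 over all genes tested. The members were chosen with earlier results of these data known, so these contrasts describe the set and do not test it.

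Among the maternally expressed RNAs, H19 is a long non-coding RNA known to restrain growth, at chr7:142575529-142578143 (GRCm38, minus strand). It lay at 15.1 and 7.48 RPKM in Cort-/- NM replicates 1 and 2, and at 38.6, 21.005 and 23.9 RPKM in Cort+/+ NM replicates 1, 2 and 3. The groups did not overlap, though libraries of the same genotype were far apart too. The log2 fold change was -1.33 (SE 0.39), with an adjusted p of 0.475 in limma and 0.106 in limma-voom on recovered reads. Mir675, inside H19 on the same strand, lay from 14.99 to 55.9 RPKM in the Cort-/- and from 72.5 to 113 RPKM in the Cort+/+ NM libraries.

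Meg3 is a long non-coding RNA of the Dlk1 to Dio3 cluster (chr12:109541001-109571726, plus strand), known for a role in growth arrest. Its level was 4.37 and 2.61 RPKM in the Cort-/- libraries and 8.48, 7.22 and 4.79 RPKM in the Cort+/+ libraries. Both groups were wide, and the highest Cort-/- library lay just under the lowest control. The log2 fold change was -0.96 (SE 0.32) with an adjusted p of 0.534 in limma. The neighbouring maternal RNA Rian, host of small nucleolar RNAs, had a log2 fold change of -0.92 (SE 0.28), with 1.91 and 1.34 RPKM against 4.18, 3.00 and 2.43 RPKM, again without overlap.

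Cdkn1c encodes a cyclin-dependent kinase inhibitor that stops the cell cycle (chr7:143458339-143461050, minus strand). It was at 2.18 and 1.54 RPKM in Cort-/- and at 5.12, 3.17 and 2.42 RPKM in Cort+/+ libraries, from 40 to 128 reads over all 10 libraries. The gap between the groups was narrow, and the spread of the controls rested on replicate 1. Its log2 fold change was -0.86 (SE 0.35; adjusted p = 0.620 in limma). The antisense gene Gm44732 overlaps Cdkn1c and was listed at 1.98 to 6.55 RPKM, so that without a stated strand setting of the counting the reads of the pair cannot be told apart. In the same cluster Kcnq1, a potassium channel gene, lay on the other side, with 4.71 and 5.29 RPKM in Cort-/- against 3.17, 3.25 and 3.92 RPKM in Cort+/+ libraries (log2 fold change 0.53, SE 0.13).

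Grb10, an adaptor protein that dampens insulin and insulin-like growth factor receptor signalling (chr11:11930508-12038683, minus strand), had the smallest ratio of the highest to the lowest value over the 10 libraries (1.71). It was at 17.7 and 18.6 RPKM in Cort-/- and at 30.2, 24.3 and 22.9 RPKM in Cort+/+ libraries. The Cort-/- libraries were close together and well apart from all controls, at 1986 or more reads each. The log2 fold change was -0.50 (SE 0.13), with an adjusted p of 0.411 in limma and 0.080 in limma-voom, the lowest of the 9 in both.

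Of the paternally expressed genes, Peg3 encodes a zinc finger protein linked to growth and apoptosis (chr7:6703892-6730431, minus strand). Its values were 4.47 and 4.39 RPKM in Cort-/- and 7.94, 7.41 and 5.29 RPKM in Cort+/+ libraries. The Cort-/- pair was nearly identical and under all controls. Its log2 fold change was -0.60 (SE 0.19; adjusted p = 0.498 in limma). Usp29 and Zim1, which share its cluster, stayed under 1 RPKM in every group.

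Ndn, or necdin, is a MAGE family protein that restrains proliferation (chr7:62346569-62350262, plus strand). It lay at 13.59 and 11.2 RPKM in Cort-/- and at 19.1, 14.9 and 13.61 RPKM in Cort+/+ libraries. The ranges were all but touching, and the log2 fold change was -0.34 (SE 0.17; adjusted p = 0.681 in limma). Its neighbour Snrpn, a splicing protein gene, was level at 8.92 ± 0.368 RPKM (SD, n = 2) in Cort-/- and 8.86 ± 0.759 RPKM (n = 3) in Cort+/+ libraries.

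Plagl1 encodes a zinc finger transcription factor known to act on other imprinted genes (chr10:13060504-13131694, plus strand). It was at 3.91 and 2.24 RPKM in Cort-/- and at 3.61, 4.19 and 3.59 RPKM in Cort+/+ libraries. The groups overlapped, since Cort-/- replicate 1 lay among the controls and replicate 2 below them. Its log2 fold change was -0.34 (SE 0.25).

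Mest, which codes for a protein of the hydrolase fold (chr6:30723547-30748465, plus strand), was the exception in sign. It was at 3.92 and 6.52 RPKM in Cort-/- and at 4.01, 4.69 and 5.03 RPKM in Cort+/+ libraries. The Cort-/- libraries fell on either side of the controls, with a log2 fold change of 0.15 (SE 0.24). Copg2 overlaps Mest on the opposite strand and stayed between 10.8 and 13.3 RPKM in all libraries.

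Dlk1, a transmembrane protein of the Notch ligand kind (chr12:109452823-109463336, plus strand), had 4 and 3 reads in the Cort-/- libraries and 4 to 8 in the Cort+/+ libraries. At this depth no difference was detectable.

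**Figure D2:**
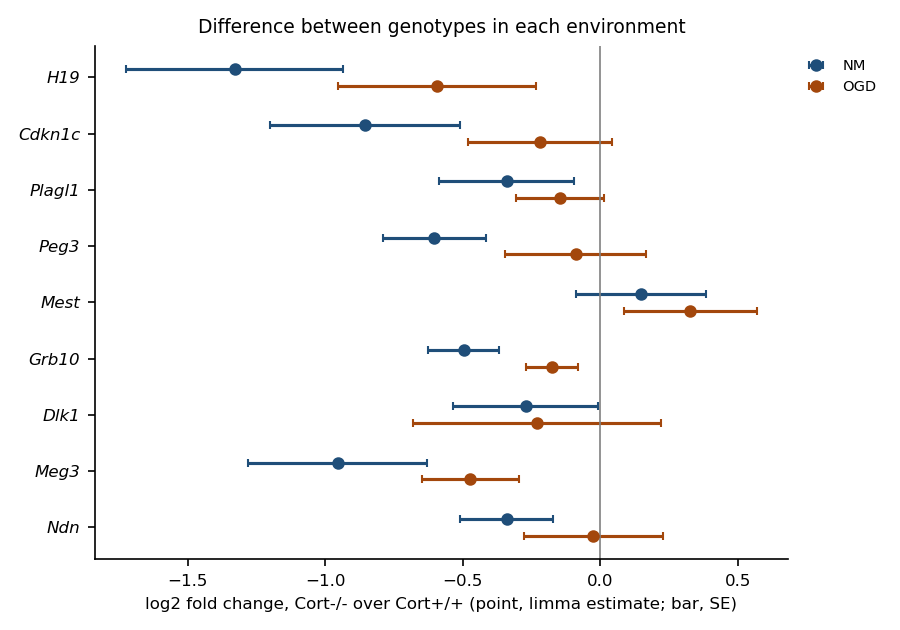
Log2 fold change of Cort-/- over Cort+/+ (horizontal axis) for each gene under NM and under OGD; points are limma estimates and bars their SE. Under NM the estimates run from -1.33 (H19) to 0.15 (Mest), and under OGD from -0.59 (H19) to 0.33 (Mest).

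The count of 4 members rested on single libraries. Without Cort-/- NM replicate 2 none of the 9 reached an unadjusted p under 0.05, without Cort+/+ NM replicate 1 or replicate 2 only H19 and Grb10 did, and without Cort-/- NM replicate 1 there were 3. Leaving out Cort+/+ NM replicate 3 gave 5. In these 5 fits 6.15% to 11.5% of all genes reached that level. Over the 11 alternatives of this comparison the sign stayed negative for H19, Cdkn1c, Peg3, Grb10, Meg3 and Ndn.

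Cort-/- NM replicate 2 was the lowest of all 10 jointly scaled libraries for 7 of the 9 genes (H19, Cdkn1c, Plagl1, Peg3, Dlk1, Meg3 and Ndn) and the highest for Mest. Cort+/+ NM replicate 1 was the highest for 5 (Cdkn1c, Peg3, Grb10, Meg3 and Ndn). After joint scaling and centring of each gene on its mean, 8 of the 9 members lay below their mean in each of Cort-/- NM replicates 1 and 2 and Cort-/- OGD replicate 1, and 3 did in Cort-/- OGD replicate 3.

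**Figure D3:**
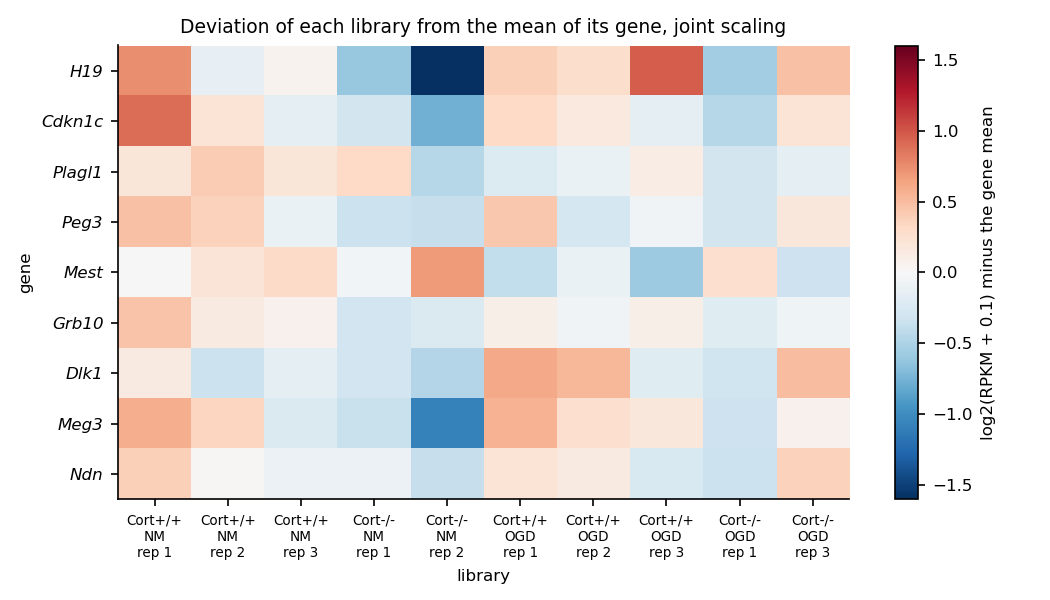
Deviation of each library (columns) from the mean of its gene (rows) on the log2(RPKM + 0.1) scale after joint scaling of the 10 libraries; red is above and blue below the mean. H19 spans from -1.60 in Cort-/- NM replicate 2 to 0.97 in Cort+/+ OGD replicate 3, while Mest is at 0.68 in the former and -0.59 in the latter.

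Markers of other cells differed between the same libraries. The 7 fibroblast and leptomeningeal markers summed to 121 and 83.6 RPKM in the Cort-/- NM libraries and to 273, 279 and 193 RPKM in the Cort+/+ NM libraries. The 3 of 7 lower at an unadjusted p under 0.05 were the collagen genes Col1a1 (log2 fold change -1.35), Col1a2 (-1.41) and Col3a1 (-1.04). Pdgfra, a defining receptor of these cells, lay the other way, at 0.485 and 0.706 RPKM in Cort-/- and 0.366, 0.319 and 0.320 RPKM in Cort+/+ NM libraries. Lum and Dpt had at most 3 reads in each NM library. The 6 pericyte markers summed to 7.59 and 10.2 RPKM against 17.9, 21.4 and 18.7 RPKM. Of these, 3 of 6 were lower by the same rule and 2 of 6 had 3 reads or fewer. Over all genes 4.82% were lower by that rule. The sums of both lists did not overlap between genotypes under NM. The endothelial sum was 1221 and 1363 RPKM against 959, 949 and 1221 RPKM, so both Cort-/- sums lay above the Cort+/+ sums, by a margin lost in rounding. All 8 endothelial markers had a log2 fold change above 0, with a median of 0.29. Among them 1 was higher at an unadjusted p under 0.05, a level that 8.39% of all genes reached in either direction. The part of these cells in the differences of the imprinted genes was not tested, and in bulk RNA fewer cells of a type and less RNA per cell cannot be told apart.

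**Figure D4:**
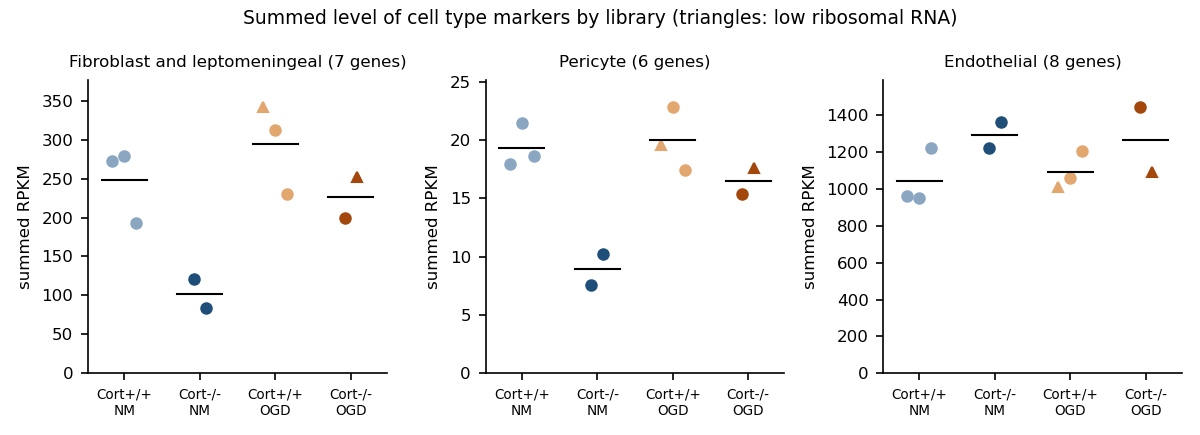
Summed RPKM (vertical axis, from 0) of the fibroblast and leptomeningeal, pericyte and endothelial markers in each library, with triangles for the 2 libraries low in ribosomal RNA and lines for group means. The Cort-/- NM libraries are the lowest of the 10 for the first 2 lists, at 83.6 and 121 RPKM and at 7.59 and 10.2 RPKM.

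The lists of other imprinted genes had medians nearer to 0. By an unadjusted p under 0.05, 4.82% of all genes were lower under NM, and 8.39% were lower or higher. Of 24 other paternally expressed genes tested under NM, 4 were lower and 0 higher by this rule, with a median log2 fold change of -0.13. Igf2, the growth factor whose gene neighbours H19, had the lowest p among them, at 0.849 and 0.715 RPKM in Cort-/- and 2.64, 1.98 and 4.98 RPKM in Cort+/+ libraries (log2 fold change -1.80, SE 0.40). Impact (-0.24, SE 0.07), a regulator of translation, and Mcts2 (-0.48, SE 0.17) followed. Of 23 other maternally expressed genes, 3 were lower and 1 higher, with a median of -0.07. Igf2r, the receptor that clears Igf2, lay at 35.4 and 28.1 RPKM against 46.3, 46.7 and 41.2 RPKM (log2 fold change -0.50, SE 0.12), and the higher gene was Kcnq1.

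Of 15 genes that set or keep imprints, 0 were lower or higher at an unadjusted p under 0.05 in limma, against 8.39% of all genes. Their median log2 fold change was -0.06. Of those averaging 1 RPKM or more, the smallest p-values belonged to Uhrf1 (0.20, SE 0.09), a cofactor of maintenance DNA methylation, Ehmt2 (-0.10, SE 0.06), a histone methyltransferase, and Smchd1 (0.12, SE 0.08), a chromatin protein. Of 15 paralogues and partners, 4 were lower, against 4.82% of all genes, and 0 higher, with a median of -0.20. These included the MAGE genes Maged2 (-0.27, SE 0.06) and Maged1 (-0.21, SE 0.06), relatives of Ndn, and Cdkn1a (-0.16, SE 0.05), the cell cycle inhibitor related to Cdkn1c. Of the 2 microRNA genes tested from the list of those inside members, Mir675 (-1.56, SE 0.58) was lower by the same rule. Mir770, with 0 to 6 reads, was not (-1.62, SE 1.49). Mir1906-1, inside Meg3 on the same strand and at 17.7 to 70.1 RPKM, was not among these 2. No gene of these lists passed the FDR.

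The second comparison asked for the difference between genotypes after OGD. Under OGD, Grb10 and Meg3 were the members whose Cort-/- libraries both lay below every Cort+/+ library, 2 of 8 against 8.22% of genes, and 0 of 8 lay above (7.94% of genes). No member and no gene (0%) passed the FDR in limma, and Meg3 alone had an unadjusted p under 0.05, against 3.42% of genes. With limma-voom H19 and Meg3 did, against 4.04% of genes. The median log2 fold change of the 9 members was -0.18, beside -0.01 over all genes.

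Meg3 was at 4.70 and 6.22 RPKM in Cort-/- OGD replicates 1 and 3 and at 8.81, 7.18 and 6.78 RPKM in Cort+/+ OGD replicates 1, 2 and 3. The groups were separate, with a log2 fold change of -0.47 (SE 0.18; adjusted p = 0.978 in limma). Without both libraries low in ribosomal RNA, which leaves Cort-/- replicate 1 alone against 2 controls, it was -0.56. Without Cort-/- OGD replicate 1 (-0.27), Cort+/+ OGD replicate 1 (-0.36) or Cort+/+ OGD replicate 2 (-0.51) it no longer reached an unadjusted p under 0.05. Rian lay at 2.08 and 2.69 RPKM against 3.56, 3.69 and 3.71 RPKM (log2 fold change -0.60).

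H19 was at 16.4 and 33.6 RPKM in the Cort-/- OGD libraries and at 31.6, 29.5 and 47.5 RPKM in the Cort+/+ OGD libraries. Cort-/- replicate 3, which is low in ribosomal RNA, fell among the controls, and replicate 1 lay below them. The log2 fold change of -0.59 (SE 0.36) became -0.08 without replicate 1 and -1.11 without replicate 3. It was -1.19 without both libraries low in ribosomal RNA.

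Grb10 stayed narrowly apart at 20.1 and 22.0 RPKM against 24.5, 22.1 and 24.6 RPKM, with a log2 fold change of -0.18 (SE 0.09). Peg3 was at 4.87 and 6.80 RPKM in Cort-/- and 8.12, 4.94 and 5.75 RPKM in Cort+/+ libraries, a log2 fold change of -0.09 (SE 0.26). Under OGD the library low in ribosomal RNA was the highest of its genotype for Peg3, and likewise for Meg3, Cdkn1c, Ndn and Dlk1; its part was not tested.

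Ndn lay at 12.1 and 19.9 RPKM against 17.9, 16.9 and 12.98 RPKM (-0.03, SE 0.25). Cdkn1c lay at 2.05 and 3.34 RPKM against 3.57, 3.18 and 2.54 RPKM (-0.22, SE 0.26). Plagl1 lay at 2.67 and 2.98 RPKM against 2.81, 3.05 and 3.58 RPKM (-0.15, SE 0.16). For all 3 the groups overlapped.

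Mest was again on the positive side, at 5.14 and 3.34 RPKM in Cort-/- and 3.21, 3.95 and 2.80 RPKM in Cort+/+ libraries, with a log2 fold change of 0.33 (SE 0.24). Dlk1 had 4 and 14 reads in Cort-/- and 5 to 16 in Cort+/+ libraries, and the groups overlapped. Fibroblast and leptomeningeal markers summed to 200 and 252 RPKM in Cort-/- against 342, 312 and 231 RPKM in Cort+/+ OGD libraries and overlapped, as did the pericyte sums (15.3 and 17.6 against 19.6, 22.9 and 17.4 RPKM). Of these, 2 of 7 and 1 of 6 were lower, and 0 higher, at an unadjusted p under 0.05, against 3.42% of genes. Their part was not tested.

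The other lists were counted by the same level under OGD, which 3.42% of all genes reached in either direction. Of 24 other paternally expressed genes 0 were lower or higher at an unadjusted p under 0.05 in limma, and of 22 other maternally expressed genes 1 was lower and 0 higher. None of the 15 genes that set or keep imprints passed, and 1 of 15 paralogues and partners was lower. In lists this short, counts of 0 or 1 do not set them apart from all genes.

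The third comparison asked how Cort+/+ BECs respond to OGD, with the libraries of both environments scaled together. Among the members Mest and Plagl1 were lower after OGD in all 3 libraries than in any NM library, 2 of 8 against 5.18% of genes, and 0 of 8 were higher throughout (7.48% of genes). Both had an unadjusted p under 0.05, as did 5.48% of genes, and both did with limma-voom (5.57% of genes). No member passed the FDR in limma, at which 9 genes of 27075 (0.0332%) were called. The median log2 fold change of the members was -0.19, beside -0.01 over all genes.

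For Mest the NM values of 4.11, 4.80 and 5.16 RPKM on the joint scale stand against 3.13, 3.85 and 2.73 RPKM after OGD. The ranges were separate by a small margin, with a log2 fold change of -0.53 (SE 0.15; adjusted p = 0.881 in limma). An unadjusted p under 0.05 was kept for Mest in all 14 alternatives, where the log2 fold change lay between -0.66 and -0.42. Plagl1 had a log2 fold change of -0.34 (SE 0.13), kept in sign in all 14 and past that level in 5. It lost that level when low ribosomal RNA was a term of the fit (-0.26), and when any of the 3 NM replicates or OGD replicates 1 or 2 was left out.

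H19 had a log2 fold change of 0.32 (SE 0.27), Dlk1 of 0.43 (SE 0.32) and Meg3 of 0.11 (SE 0.22). Cdkn1c (-0.22), Peg3 (-0.21), Grb10 (-0.19) and Ndn (-0.06) lay below 0, each by less than 2 SE. For these 7 genes the ranges under NM and OGD overlapped. At an unadjusted p under 0.05, 3 of 24 other paternally and 2 of 22 other maternally expressed genes were lower and none were higher. Of 15 paralogues and partners 1 was higher. By this rule 5.48% of all genes were lower or higher. Markers of smooth muscle differed between the same libraries. All 4 had a log2 fold change below 0, with a median of -0.51, and 2 were lower at that level, Myh11 (-1.05, SE 0.28) and Cnn1 (-0.80, SE 0.21). Of 7 fibroblast and leptomeningeal markers 1 was higher, Lum, with few reads, and of 6 pericyte markers 0 were lower or higher in limma. The part of these cells was not tested.

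The fourth comparison asked the same of Cort-/- BECs, with 2 libraries in each environment. H19, Peg3, Grb10 and Meg3 were higher in both OGD libraries than in both NM libraries, 4 of 8 against 16.1% of genes. Each gap was narrow on the joint scale, between OGD replicate 1 and the higher NM library. These lay at 15.9 against 15.5 RPKM for H19 and 4.75 against 4.59 RPKM for Peg3. For Grb10 they lay at 19.6 against 19.2 RPKM, and for Meg3 at 4.58 against 4.50 RPKM. Lower throughout were 0 of 8 (18.1% of genes). None of the 9 had an unadjusted p under 0.05 (4.08% of genes did), and no gene passed the FDR in limma (0%). With limma-voom 2 members, H19 and Meg3, reached an unadjusted p under 0.05, against 3.98% of genes.

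H19 was at 15.1 and 7.48 RPKM under NM and 16.4 and 33.6 RPKM after OGD, on the scale of each deposited table. Replicate 1 was close in both environments, and the difference lay in NM replicate 2 and OGD replicate 3. The latter library is low in ribosomal RNA, and the part of this was not tested. The log2 fold change of 1.06 (SE 0.51) was 0.54 without OGD replicate 3 and 0.56 without NM replicate 2. For Meg3 (0.59, SE 0.31) the values were 0.39 and 0.22. For Peg3 the log2 fold change was 0.29 (SE 0.19), and for Grb10 0.13 (SE 0.09).

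Mest had a log2 fold change of -0.36 (SE 0.34) and Plagl1 of -0.15 (SE 0.30), both with overlapping groups. Cdkn1c (0.41, SE 0.33), Ndn (0.25, SE 0.28) and Dlk1 (0.48, SE 0.39) lay above 0 and overlapped too. Fibroblast and leptomeningeal markers in the Cort-/- libraries were at 121 and 83.6 RPKM under NM and at 200 and 252 RPKM after OGD, and the pericyte markers at 7.59 and 10.2 RPKM and at 15.3 and 17.6 RPKM. At an unadjusted p under 0.05, 3 of 7 and 2 of 6 of these were higher after OGD, while the 4 smooth muscle markers lay below 0 with a median of -0.53, and 1 of them, Myh11 (-1.26, SE 0.30), was lower. Their part was not tested. Of the other imprinted genes at an unadjusted p under 0.05, 1 paternally expressed gene was higher and 1 lower of 24, and 1 of 21 maternally expressed genes was higher. By this rule 4.08% of all genes were lower or higher.

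**Figure D5:**
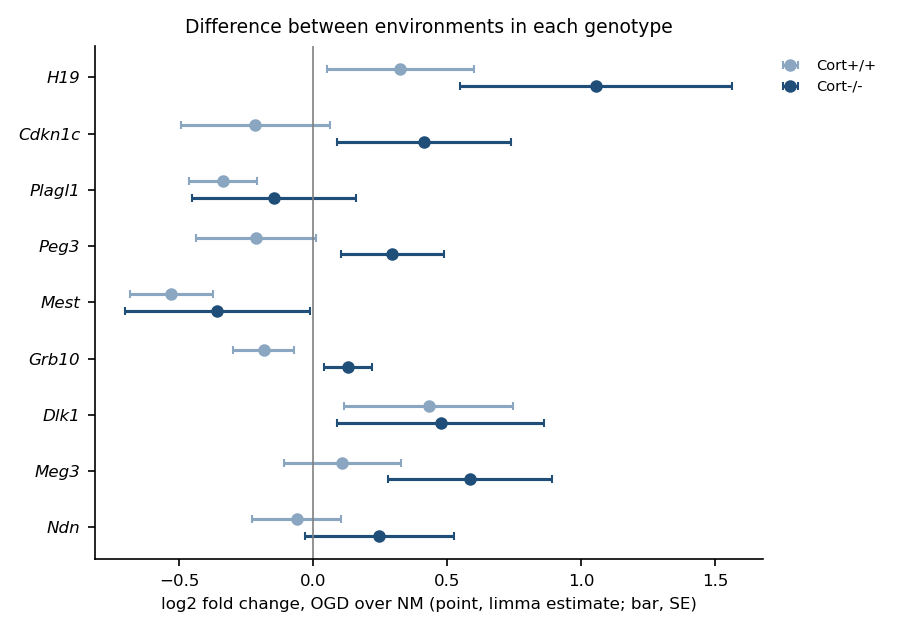
Log2 fold change of OGD over NM (horizontal axis) for each gene in Cort+/+ and in Cort-/- BECs; points are limma estimates and bars their SE. H19 is at 0.32 in Cort+/+ and 1.06 in Cort-/-, while Mest is at -0.53 and -0.36.

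Whether the genotype difference itself changed with the environment was tested by the interaction. No member passed the FDR in limma, at which 3 of 27321 genes (0.011%) were called. None had an unadjusted p under 0.05, against 2.85% of genes. The interaction was 0.73 (SE 0.59) for H19, 0.63 (SE 0.47) for Cdkn1c, 0.51 (SE 0.34) for Peg3, 0.48 (SE 0.40) for Meg3 and 0.32 (SE 0.16) for Grb10, on the log2 scale, where a positive value means that the genotype difference was less negative, or for Mest more positive, under OGD. Ndn (0.31), Plagl1 (0.19), Mest (0.17) and Dlk1 (0.04) were nearer to 0. All 8 members with a mean of at least 1 RPKM were above 0, as were 6310 of the 13789 genes at that level. For H19 the value was 0.13 without both libraries low in ribosomal RNA and 0.23 without Cort-/- NM replicate 2.

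Genes with a pattern like that of each member over the 10 libraries were listed by the smallest root mean square difference of centred log2 values, among 13781 candidates. For H19 these were ENSMUSG00002075214 (0.119), Enpp1 (0.213) and Edil3 (0.244), where H19 itself deviated by 0.722 from its mean. The first has no symbol in the table, is 70 bases long and had 26 to 125 reads. Enpp1 codes for an ectonucleotide pyrophosphatase and Edil3 for a matrix protein that binds integrins.

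For Meg3 they were Arhgef25 (0.110), Ptk7 (0.124) and Serpinf1 (0.127), against a deviation of 0.483. Serpinf1, a secreted anti-angiogenic serpin, ranged from 46.6 to 146 RPKM. For Cdkn1c they were Fgfr2 (0.151), Tnfaip6 (0.152) and Dipk1b (0.155), the first a fibroblast growth factor receptor. For Peg3 they were Notch2 (0.106), Arhgef17 (0.108) and Arnt2 (0.117), and for Grb10 Scpep1os (0.092), Arap2 (0.096) and Ccng1 (0.098).

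For Mest they were Arrdc4 (0.134), P2ry10b (0.178) and Asb4 (0.188), the last an imprinted gene of the same chromosome. For Plagl1 they were Egfl8 (0.145), Msl3l2 (0.149) and Gm20422 (0.152), for Ndn Lpcat2 (0.1001), Ctsd (0.101) and Epb41l1 (0.104), and for Dlk1 Gm44641 (0.179), Phpt1 (0.182) and Adcy3 (0.183). The libraries share depth and preparation, so the likeness is a description.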

How the data were processed

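RNA-seq of 10 libraries was analysed, grouped by GEO's labels. The deposited RPKM values were computed by the authors per gene and library, each environment normalized in its own table, and the authors' processing notes name edgeR. The labels and the study's methods name different kits, both for stranded mRNA, and the study ran its pipeline reanalyzerGSE; aligner, genome build and the strand setting of the counting are not given in the sources used here. Their fold change, abundance and p-value columns were not used. Whole reads were recovered for at least 99.9958% of values (tolerance 0.05 reads).

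Each comparison was fitted across all genes with a value above 0 with limma 3.58.1 (R 4.3.3; two-sided, trend on mean expression) on log2(RPKM + 0.1), a scale that understates changes of low genes, and p-values were adjusted by Benjamini-Hochberg, with calls at an FDR of at most 0.05. Counts at an unadjusted p under 0.05 and of groups without overlap are given beside these. The OGD and NM tables were joined over 27321 genes by the trimmed mean of M values. The fit was tested on simulated data, where with 2 libraries in an arm it gave the right directions but called few or none of the changed genes at this FDR, so a count of 0 says little. Same-numbered replicates did not deviate together (correlations from -0.39 to 0.11). With so few libraries in a group this cannot show whether the numbers pair the samples, and the main fits do not pair them. Replicates differed by more than sampling noise; p-values measure the spread between these pools, and counts give counting error only.

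Members, lists and motifs were chosen with earlier results of these data known. All 9 members are named, the up to 3 genes of each list with the lowest p under NM and a mean of at least 1 RPKM, cluster neighbours, and the 3 genes nearest in pattern to each member. Positions were matched by symbol to GENCODE vM21 (GRCm38). Promoter windows were at hand for Mest, Peg3, Ndn, Plagl1, Grb10, Dlk1 and Meg3.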

Additional observations from a re-analysis of the deposited data

How the results depend on the processing

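Of 598 refits of single members, 554 kept their side of an unadjusted p under 0.05, 26 lost it, 18 gained it and none passed it with the opposite sign; 33 differed in sign from a value not past that level. Over all genes under NM, limma called 0, but 20 with a pseudocount of 1, 124 with limma-voom and 4 with all groups in one fit; the cause was not tested. Under OGD it called 0, against 5 with limma-voom and 7 in the joint fit. No member was among the calls at an FDR of at most 0.05 in any of these. For OGD against NM in Cort+/+ the 9 calls became 5 with a pseudocount of 1, 1 with limma-voom, and 0 with the filter at 1 RPKM, the joint fit or the ribosomal RNA term. The 3 interaction calls became 0 with a pseudocount of 1, the filter, limma-voom, the ribosomal RNA term or, an alternative chosen after seeing the data, without both libraries low in ribosomal RNA.

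With the replicate number as a block, the calls became 0 for OGD against NM in Cort+/+ and 0 for the interaction. In the former 1 member (Mest) was left at an unadjusted p under 0.05 (5.23% of all genes). Whether the numbers pair the samples is not known. In Cort-/- no paired analysis was possible because the groups share a single number.

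Members at an unadjusted p under 0.05 under OGD were 0 with quantile normalization (3.4% of all genes), 2 with limma-voom (4.04%) and 0 in the joint fit (4.55%). For OGD against NM they were 1 in Cort+/+ with the joint fit (5%), the ribosomal RNA term (7.27%) or scaling to total reads (4.37%), and in Cort-/- 2 with limma-voom (3.98%) and 1 in the joint fit (4.7%).

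Leaving out each library in turn, members at that level ranged from 0 to 5 under NM, 0 to 1 under OGD, 1 to 2 for OGD against NM in Cort+/+, 0 to 2 in Cort-/- and 0 to 1 for the interaction. Calls over all genes ranged from 0 to 683 under NM, 0 to 710 under OGD and 0 to 8 for the interaction, and were 0 for OGD against NM in Cort+/+. The high counts came where a lone Cort-/- library, assumed to vary like the controls, was left: 543 and 683 without Cort-/- NM replicates 1 and 2, and 710 and 626 without Cort-/- OGD replicates 1 and 3. Dlk1, with 3 to 16 reads, is limited by depth.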
